A study of Homo sapiens with 6 samples.

Results

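The UBX domain cofactors of p97 examined here are 10 genes, namely *UBXN2B*, *UBXN2A*, *NSFL1C*, *UBXN1*, *UBXN4*, *UBXN6*, *UBXN7*, *UBXN8*, *FAF2* and *VCP*, the gene of p97 itself. They are 10 of the 60655 genes of the count table, and their rows were taken by gene name. The set was selected on the enrichment of *UBXN2B* in the IGF2BP3 immunoprecipitation (IP), and the other 9 genes were added as its family and its partner ATPase. The difference between the IPs is therefore given below as a description for all 10, with no p-value for a member. Where a member is said to be past the thresholds of the study, this gives its place in the whole table and is not evidence for it. RNA from WaGa cells, an established Merkel cell polyomavirus-positive Merkel cell carcinoma line with a genotype labelled WT and no treatment, was pulled down with an antibody to IGF2BP3 (3 libraries) or with nonspecific IgG as the negative control (3 libraries). All 6 libraries share this line, so a single tumor is represented. In such a RIP-seq experiment, an RNA that is bound by the protein takes up a larger share of the reads in the specific IP than in the control IP. As in any bulk library, the number of cells that gave a transcript and the amount each cell gave cannot be told apart.

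p97 is an AAA ATPase that uses ATP to pull ubiquitinated proteins out of membranes and complexes, often on their way to the proteasome. Its cofactors bring it to particular substrates, and the UBX domain, which has a ubiquitin-like fold, is the most common part by which they dock on p97. *UBXN2B* (p37), *NSFL1C* (p47) and *UBXN2A* form a subfamily that also carries a SEP domain. p47 and p37 are known for p97-driven membrane fusion that rebuilds and maintains the Golgi and the endoplasmic reticulum (ER), and p37 also for the maturation of protein phosphatase 1 (PP1). *FAF2*, *UBXN4* and *UBXN8* encode ER membrane proteins that tie p97 to ER-associated degradation (ERAD). *UBXN1* and *UBXN7* encode soluble adaptors with ubiquitin-binding parts, and *UBXN6* encodes an adaptor with a second p97-binding domain that acts in lysosome and endosome traffic.

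The libraries held 9758759 to 14886414 counts on genes. Both replicate 1 libraries stood apart from replicates 2 and 3. Within a group, chi-square divided by its degrees of freedom was 16.3 to 19.7 for pairs that included replicate 1 and 2.13 to 3.06 for replicates 2 and 3. All 9 Merkel cell carcinoma markers checked, *ATOH1*, *SOX2* and *KRT20* among them, were covered, with a sum of 4795 to 5394 CPM (counts scaled to library size) in the IgG IP and 5042 to 5396 in the IGF2BP3 IP. Of 9 markers of leukocytes, fibroblasts, melanocytes, keratinocytes and endothelium, 4 were at 0 in every library, and the 9 summed to 0.971 to 2.05 and 1.60 to 1.68 CPM. Intervals and p-values describe the spread between the libraries.

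All 10 members were detected, and all 10 passed the filter on low counts. All 6 libraries are pulldowns and none is of total RNA, so the levels below do not measure expression in the cells. In the IgG IP, TPM values, the level per transcript length, were highest for *UBXN1*, at 107 ± 19.0 (SD, n = 3), and *UBXN4*, at 95.6 ± 13.9 (SD, n = 3). The ranges of these 2 overlapped, and every IgG IP value of both lay above all other members. *VCP* at 39.3 ± 12.5 TPM (SD, n = 3), *UBXN2A* at 36.4 ± 2.24 (SD, n = 3) and *UBXN2B* at 34.4 ± 4.63 (SD, n = 3) formed the middle of the order. The ranges of *VCP* and *UBXN2A* overlapped, as did those of *UBXN2A* and *UBXN2B*, so *UBXN2B* in the control IP did not stand apart from its paralog. The ranges of *UBXN2B* and *NSFL1C*, the next in the order, did not overlap. *NSFL1C* at 24.4 ± 4.14 TPM and *UBXN7* at 22.9 ± 4.66 followed (SD, n = 3 each). *FAF2*, *UBXN8* and *UBXN6* were lowest, at 16.5 ± 2.86, 15.6 ± 2.12 and 13.9 ± 2.59 TPM (SD, n = 3 each), again with overlapping neighbours. In the IGF2BP3 IP *UBXN2B* reached 62.1 ± 10.3 TPM (SD, n = 3), which placed it above *VCP* at 43.9 ± 14.7 (SD, n = 3). Its 3 values of 54.9, 73.9 and 57.5 TPM were all higher than its 3 IgG IP values of 29.1, 37.5 and 36.7 TPM.

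The transcripts of the set differ widely in form. In GENCODE version 44 the canonical transcript of *UBXN2B* has 8 exons and 4971 bases, of which 993 are coding and 3953 are 3′ UTR. Its 3′ UTR is longer than that of 85.0% of the 11864 tested protein-coding genes, and its GC content of 39.0% is low (13.7% of those genes lie below it). *UBXN2A* is built alike, with 777 coding bases and a 3′ UTR of 5045 bases, while *NSFL1C* has 1110 coding bases and a 3′ UTR of 1586. *UBXN7* has the longest 3′ UTR of the set, at 9026 bases, and *UBXN1* the shortest, at 93 bases with a GC content of 60.3%. IGF2BP proteins have been described to prefer CAU elements and the sequence UGGAC, the latter around methylated adenosines. Written as DNA and searched on the transcript strand only, CAT not followed by G occurred 15.3 times per 1000 bases in *UBXN2B*, the highest density among the 10 members. This exceeded 92.5% of the tested protein-coding transcripts, of which 100.0% after rounding hold the element and whose median was 10.8 per 1000 bases. *VCP* followed with 13.6, and the other 8 lay between 7.94 and 12.2. TGGAC, which can share its last base with a following CAT, was absent from *UBXN2B* and from *FAF2* and occurred 2 to 14 times in each of the other 8. Of the tested protein-coding transcripts 94.2% held at least 1 TGGAC. Among the 2124 such transcripts of 4000 to 5500 bases, a range chosen after these values were seen, 1.22% held none. Neither this share nor the 92.5% for CAT was matched on GC content, which is low in *UBXN2B*. These matches describe letters in the transcript, and neither binding positions nor methylation were measured.

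To show these elements in members for which sequence is given, the first stretch of 30 exon bases with the largest number of CAT not followed by G is printed for *FAF2*, *UBXN2A* and *NSFL1C*, with each CAT in capitals, and the coding TGGAC matches of *UBXN2A* and *NSFL1C* with 8 bases on either side and the match in capitals. All are from the GENCODE transcripts and equal to the GRCh38 genome at the positions given, which are coding exon sequence. The *FAF2* stretch is exon 2, chr5:176479224-176479253, plus strand. The *UBXN2A* stretches are exon 7, chr2:23999813-23999842, and exon 5, chr2:23982932-23982952, plus strand. The *NSFL1C* stretches are exon 2, chr20:1464373-1464402, exon 4, chr20:1455093-1455113, and exon 7, chr20:1452582-1452602, minus strand.
FAF2 CAT stretch: CATaccttggaacagCATaactggaaCATa
UBXN2A CAT stretch: CATCATtcagagactccaaaaaactgCATc
NSFL1C CAT stretch: gacggaggggatgaagaCATtgtgacCATt
UBXN2A TGGAC: agaagaggTGGACgttaaagt
NSFL1C TGGAC, exon 4: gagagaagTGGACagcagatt
NSFL1C TGGAC, exon 7: gctcacggTGGACaggtgaac
The stretches of *FAF2* and *UBXN2A* hold 3 such CAT each and that of *NSFL1C* holds 2.

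Among the SEP-domain members of the set, *UBXN2B* alone lay higher in every IGF2BP3 IP library than in every IgG IP library. Of all tested genes, 12.0% did so. Counts scaled to the library sizes (normalized CPM) of *UBXN2B* were 111, 111 and 118 for replicates 1 to 3 of the IgG pulldown, and 196, 211 and 165 for those of the IGF2BP3 pulldown. The lowest IGF2BP3 IP value, in replicate 3, was still above the highest IgG IP value. Group means were 191 ± 23.3 and 113 ± 3.63 normalized CPM (SD, n = 3 each), a fitted log2 fold change of 0.75 (standard error 0.10, 95% confidence interval 0.52 to 0.98) and a fold of 1.68. The differences between IPs of the same replicate number were 0.82, 0.92 and 0.49 on the log2 scale. Its counts were 1025 to 2795 per library, which is the second highest maximum in the set after *UBXN4*. *UBXN2A* had 183, 140.0 and 133 normalized CPM with IgG and 154, 127 and 133 with the IGF2BP3 antibody. These values overlapped, and replicate 1 was the highest in both IPs, with a log2 fold change of -0.14 (standard error 0.13, interval -0.44 to 0.16). *NSFL1C* had 38.0, 30.6 and 32.3 normalized CPM with IgG and 36.4, 31.6 and 34.9 with the IGF2BP3 antibody. Again the groups overlapped, with a log2 fold change of 0.03 (standard error 0.12, interval -0.24 to 0.30).

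**Figure D1:**
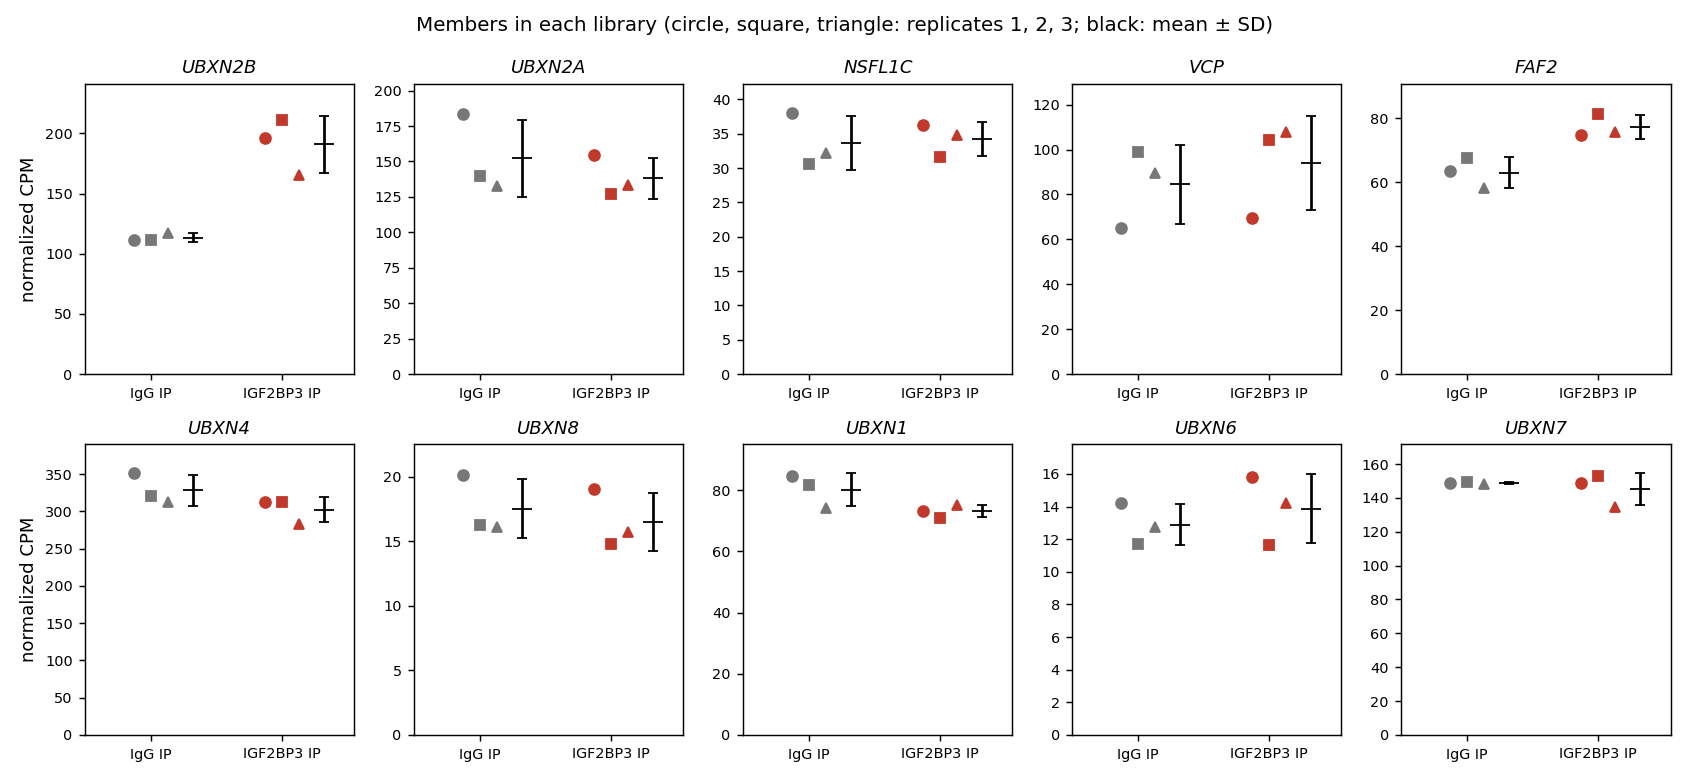
Normalized CPM of the 10 members in each of the 6 libraries, on a linear axis from 0 that differs between panels. Circles, squares and triangles are replicates 1, 2 and 3 and black bars the mean ± SD (n = 3). In *UBXN2B* and *FAF2* all 3 IGF2BP3 IP libraries lie above the 3 IgG IP libraries, and in *VCP* replicate 1 is low in both IPs.

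A ratio of counts within a library does not depend on how the libraries were scaled. The ratio of *UBXN2B* to *UBXN2A* reads went from 0.606, 0.796 and 0.884 with IgG to 1.27, 1.66 and 1.24 with the IGF2BP3 antibody, in the order of the replicate numbers. The order of the paralogs in reads was thus turned around in each IGF2BP3 IP library. The ratio of *UBXN2B* to *NSFL1C* was 2.92, 3.64 and 3.64 with IgG and 5.39, 6.69 and 4.74 with the IGF2BP3 antibody, without overlap. Against *VCP* the groups overlapped, with 1.71, 1.12 and 1.31 with IgG and 2.81, 2.02 and 1.53 with the IGF2BP3 antibody. Within each same-numbered pair the IGF2BP3 IP ratio to *VCP* was the higher one. As *UBXN2B* was selected on its enrichment in these same libraries, the ratios are a description and add no evidence for it.

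**Figure D2:**
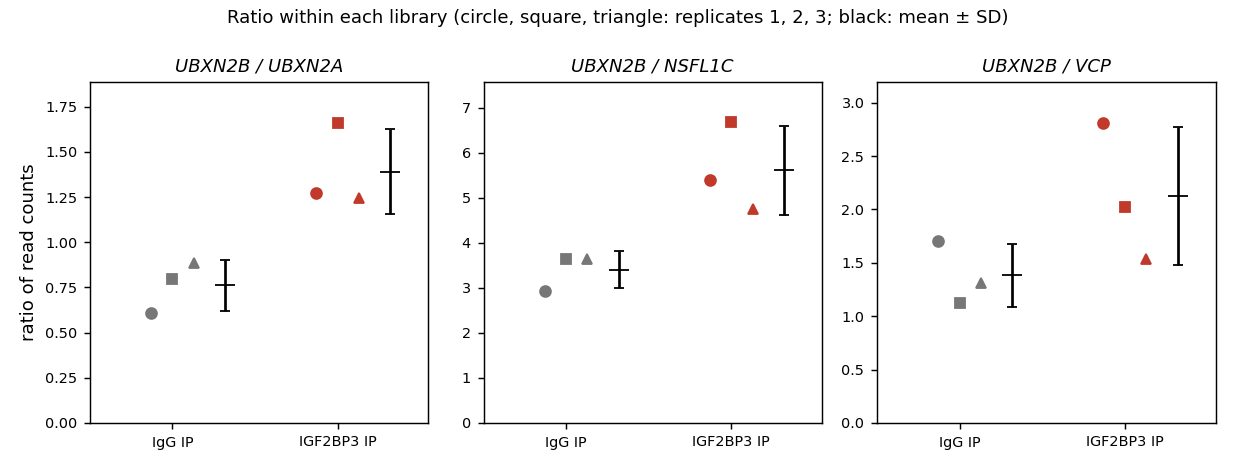
Ratio of *UBXN2B* read counts to those of *UBXN2A*, *NSFL1C* and *VCP* within each library (circles, squares and triangles are replicates 1, 2 and 3, black bars the mean ± SD, n = 3). The ratio to *UBXN2A* is below 1 in the IgG IP libraries and 1.24 to 1.66 in the IGF2BP3 IP libraries, and only the ratio to *VCP* overlaps between the groups.

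*VCP* had the largest standard error of the set. Its normalized CPM were 65.0, 99.0 and 89.6 with IgG and 69.7, 104 and 108 with the IGF2BP3 antibody. Replicate 1 was the lowest library in both IPs, and the groups overlapped. Its log2 fold change of 0.15 had a wide interval (standard error 0.19, interval -0.28 to 0.58). It moved to 0.32 when replicate 1 of the IGF2BP3 IP was left out and to -0.00 when that of the IgG IP was. The 3 same-numbered differences were small, at 0.10, 0.08 and 0.27 on the log2 scale.

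Among the ER membrane cofactors, *FAF2* was the only one higher in every IGF2BP3 IP library. Over all tested genes, 12.0% lay above the IgG IP in this way and 8.69% below. Nothing particular to a member is therefore read from such a separation. *FAF2*, whose protein (UBXD8) recruits p97 to the ER and to lipid droplets, had 63.4, 67.5 and 58.2 normalized CPM with IgG and 74.6, 81.4 and 75.7 with the IGF2BP3 antibody. The groups did not overlap, at a log2 fold change of 0.29 (standard error 0.09, interval 0.09 to 0.50), which is a fold of 1.23 and below the 1.5-fold minimum of the study. *UBXN4* (erasin) had 351, 320.4 and 313 normalized CPM with IgG and 312, 313 and 283 with the IGF2BP3 antibody. It was the only member with every IGF2BP3 IP library below every IgG IP library, by a margin of under 1 CPM at the nearest pair, with a log2 fold change of -0.12 (standard error 0.08, interval -0.31 to 0.07). *UBXN8* overlapped between the groups, from 16.1 to 20.2 normalized CPM in the IgG IP and 14.8 to 19.1 in the IGF2BP3 IP, on 186 to 243 counts per library (log2 fold change -0.08, standard error 0.15). Within libraries, *FAF2* reads were 0.181 to 0.211 of *UBXN4* reads in the IgG IP and 0.239 to 0.268 in the IGF2BP3 IP, without overlap. The ratio of *FAF2* to *UBXN8* reads overlapped, at 3.15 to 4.15 in the IgG IP and 3.92 to 5.50 in the IGF2BP3 IP.

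The soluble adaptors overlapped between the IPs. *UBXN1*, which can hold ubiquitinated clients and acts with BAG6, had 84.8, 81.7 and 74.2 normalized CPM with IgG and 73.4, 71.1 and 75.1 with the IGF2BP3 antibody (log2 fold change -0.13, standard error 0.09, interval -0.32 to 0.06). *UBXN7*, which links p97 to cullin ligases, had 149, 149 and 148 normalized CPM with IgG and 149, 153 and 135 with the IGF2BP3 antibody (log2 fold change -0.03, standard error 0.08). The IgG IP libraries of *UBXN7* varied least of all members, with an SD of 0.553 normalized CPM. *UBXN6* rested on 131 to 188 counts per library, with 11.7 to 14.2 normalized CPM in the IgG IP and 11.6 to 15.8 in the IGF2BP3 IP (log2 fold change 0.11, standard error 0.16). *UBXN6* overlaps *CHAF1A* on the other strand by 20 bases, and *CHAF1A* held 681 to 1279 counts.

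Counted together, 1 of the 10 members, *UBXN2B*, was past the thresholds of the study, a fold change of at least 1.5 and an adjusted p-value under 0.05 over all 14507 tested genes (edgeR quasi-likelihood test). No member was lower past them. Of all tested genes, 1.16% were enriched at these thresholds and 0% were lower (0 genes, with 59 at least 1.5-fold down when p is left unadjusted, and 0 with DESeq2). The groups did not overlap, with all IGF2BP3 libraries on top, in 2 of the 10 members and in 12.0% of all tested genes, and with all IGF2BP3 libraries at the bottom in 1 of the 10 and in 8.69%. Since *UBXN2B* chose the set, nothing is read from these counts. The median log2 fold change was 0.00 over the 10 members and -0.03 over the 9 without *UBXN2B*, against -0.01 over all tested genes. For all of these 9 the 95% confidence interval lay within 1.5-fold in either direction. This held for 7791 of the 14507 tested genes. For *VCP* the upper end, at 0.583, was close to the log2 limit of 0.585. With the replicate number as a block, 3.56% of all tested genes and again 1 of the 10 members were enriched. *UBXN2B* was no longer past the thresholds without replicate 2 or 3 of the IgG IP or replicate 2 of the IGF2BP3 IP, at log2 fold changes of 0.74, 0.78 and 0.67, where 19, 7 and 0 genes of the whole table passed (beside the 0, 473 were up and 62 down 1.5-fold with p under 0.05 left unadjusted).

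**Figure D3:**
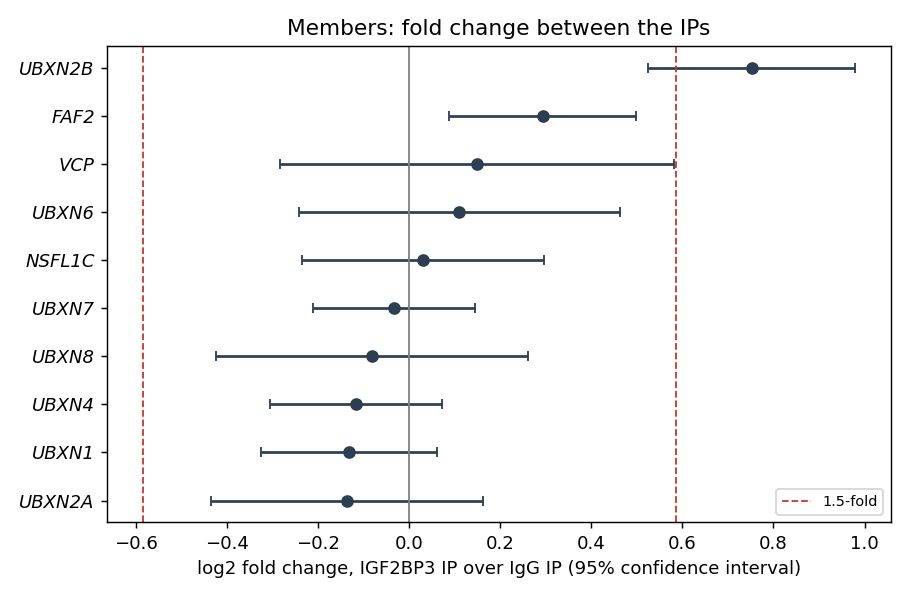
Log2 fold change of each member in the IGF2BP3 IP over the IgG IP with its 95% confidence interval from the edgeR fit (n = 3 libraries each). Dashed lines mark 1.5-fold in either direction. *UBXN2B* lies at 0.75 and the other 9 between -0.14 and 0.29.

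On GRCh38, *UBXN2B* (ENSG00000215114.10) spans positions 58411359 to 58451501 of chromosome 8, plus strand. It overlaps *PTPN11P2*, a gene on the other strand with 0 to 1 counts per library, by 2098 bases. Whether reads were shared between them was not tested. *UBXN2A* (ENSG00000173960.14) lies on chromosome 2 from 23927285 to 24004909, and *FAF2* (ENSG00000113194.13) on chromosome 5 from 176447628 to 176510074, both on the plus strand. *NSFL1C* (ENSG00000088833.18) lies on chromosome 20 from 1442162 to 1473842 and *VCP* (ENSG00000165280.18) on chromosome 9 from 35053928 to 35072668, both on the minus strand. *UBXN4* (ENSG00000144224.17) spans 135741734 to 135785056 of chromosome 2, plus strand, and *UBXN7* 196347662 to 196432430 of chromosome 3, minus strand. *UBXN1* spans 62676498 to 62679117 of chromosome 11 and *UBXN6* 4444999 to 4457794 of chromosome 19, both on the minus strand, and *UBXN8* 30729131 to 30767006 of chromosome 8, plus strand. The members are spread over 8 chromosomes, with *UBXN2B* and *UBXN8* on one and *UBXN2A* and *UBXN4* on another.

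Outside the 10 members, 62 genes of p97 pathways in 5 lists were examined, of which 59 passed the filter. In edgeR's quasi-likelihood test over all genes, 2 of the 59 rose past the thresholds, *NPLOC4* and *BAG6*, and 0 fell (at an unadjusted p under 0.05, 1 was negative, and DESeq2 called 0). Over all tested genes the share enriched was 1.16%. The median over the 59 was 0.03 on the log2 scale. In 9 of the 59 the 3 IGF2BP3 libraries were all above the control libraries, and in 4 they were all below. The shares over all tested genes were 12.0% and 8.69%, and nothing particular to the lists is read from these counts. DESeq2 called 2 of the 59 higher, and 281 genes in the whole table.

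Of 17 p97 partners without a UBX domain, *NPLOC4* rose and the other 16 did not pass. The enrichment of *NPLOC4* in these libraries was known when it was listed, so its call is not independent evidence. NPLOC4 forms the UFD1-NPL4 dimer, which binds ubiquitin chains and threads substrates into p97. Its normalized CPM were 33.1, 34.9 and 41.1 with IgG and 57.2, 62.8 and 57.7 with the IGF2BP3 antibody. All 3 IGF2BP3 IP libraries were higher, by 0.70 ± 0.11 on the log2 scale (± standard error, edgeR adjusted p = 0.022). The partner subunit *UFD1* had 76.6 ± 9.11 normalized CPM in the IgG IP and 74.8 ± 5.83 in the IGF2BP3 IP (SD, n = 3 each, log2 fold change -0.03, adjusted p = 0.94, same edgeR test). The difference between *NPLOC4* and *UFD1* was not tested. The call of *NPLOC4* was lost with a correction for GC content (log2 fold change 0.56, below the 1.5-fold minimum). It was also lost without replicate 2 or 3 of either IP, where the log2 fold changes were 0.67, 0.65, 0.80 and 0.71.

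Of 23 ERAD genes, 21 were tested and *BAG6* rose. *DERL3* and *GET4*, with 0 to 1 and 3 to 10 counts per library, were not tested. *DERL3* was at 0 TPM in every library, but *GET4* held 4.21 to 8.5 TPM. *GET4* overlaps *SUN1* on the same strand by 19882 bases, and *SUN1* held 1961 to 3663 counts. Whether this overlap lowered the counts of *GET4* was not tested. BAG6 is a chaperone that keeps misfolded or mislocalized membrane proteins soluble for degradation. It had 50.5, 53.1 and 58.5 normalized CPM with IgG and 70.6, 87.4 and 93.0 with the IGF2BP3 antibody. The groups did not overlap, and the difference was 0.63 ± 0.12 on the log2 scale (± standard error, edgeR adjusted p = 0.04). The gene lists were chosen with earlier results of these data known, so the call of *BAG6* is not independent evidence. This call was also lost with the GC correction, at a log2 fold change of 0.44. It was lost without any 1 library other than IGF2BP3 IP replicate 1, at log2 fold changes of 0.53 to 0.70. *BAG6* overlaps *APOM* on the other strand, which held 20 to 33 counts per library against 466 to 1157 for *BAG6*. The ERAD membrane core did not pass, with *SEL1L* at 0.21, *SYVN1* at 0.11 and *DERL1* at 0.16 on the log2 scale (adjusted p = 0.32, 0.77 and 0.45, same edgeR test). *DERL2* was at -0.10 (adjusted p = 0.64, same edgeR test), and the median over the 21 tested ERAD genes was -0.01.

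In the remaining lists 0 genes passed, with edgeR or DESeq2. Over the whole table, an unadjusted p-value under 0.05 was found for 1410 of the 14507 tested genes with a positive change and for 449 with a negative one. Among 13 Golgi and ER fusion genes, 1 had an unadjusted p-value under 0.05. *GORASP2*, which encodes a Golgi stacking protein, had 36.1, 40.9 and 43.2 normalized CPM with IgG and 47.0, 52.8 and 51.9 with the IGF2BP3 antibody, without overlap (log2 fold change 0.33, adjusted p = 0.21, edgeR). *STX5*, the Golgi syntaxin that takes part in p47-dependent fusion, overlapped between the IPs (log2 fold change 0.26, adjusted p = 0.68, edgeR). Among 5 genes of the PP1 complex that p37 acts on, 1 had an unadjusted p-value under 0.05. *PPP1CA*, a catalytic subunit, had 47.2, 36.9 and 38.6 normalized CPM with IgG and 64.7, 55.5 and 57.7 with the IGF2BP3 antibody, also without overlap. Its log2 fold change of 0.54 lay under the 1.5-fold minimum (adjusted p = 0.073, edgeR), and *PPP1CB* was at -0.14 (adjusted p = 0.54, edgeR). Of 4 other UBX genes, *UBXN10* was listed with at most 1 count and 3 were tested, 0 of them at an unadjusted p-value under 0.05. *ASPSCR1* was at 0.27 (adjusted p = 0.61) and *UBXN11* at -0.28 (adjusted p = 0.65, edgeR for both), on 58 to 95 and 32 to 58 counts per library.

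**Figure D4:**
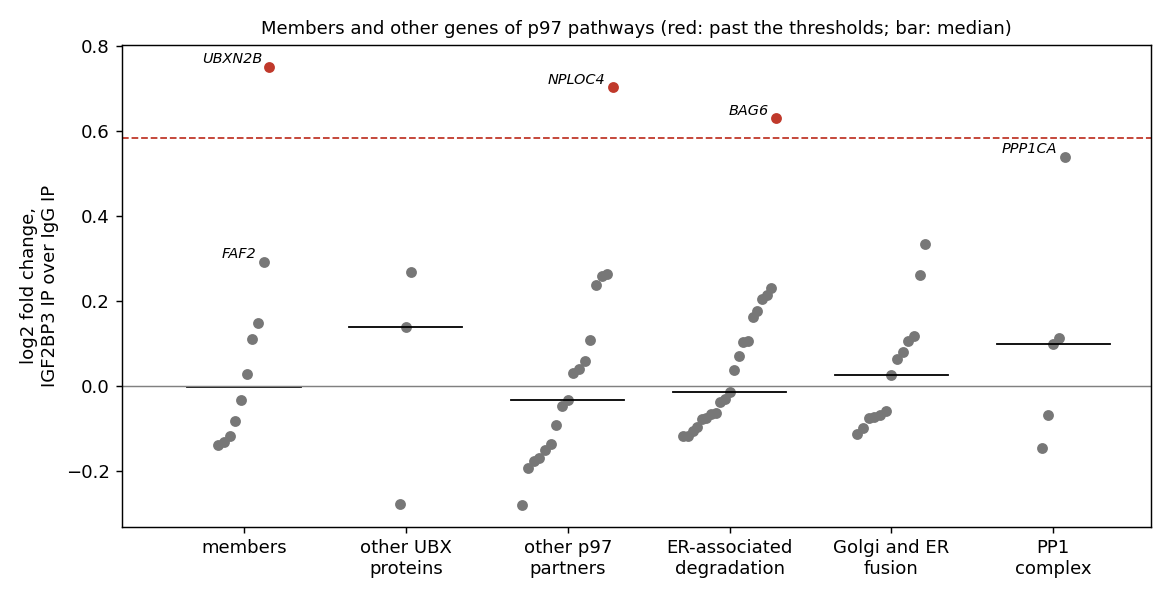
Log2 fold change in the IGF2BP3 IP over the IgG IP of the 10 members and of the tested genes of 5 p97 pathway lists, 1 point per gene, with the median of each list as a bar and 1.5-fold as a dashed line. *UBXN2B*, *NPLOC4* and *BAG6* (red) are past the thresholds.

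The genes whose pattern over the 6 libraries was closest to that of *UBXN2B* were sought among 2692 tested genes of similar abundance, within 1 of its mean log2 CPM. Likeness was the root mean square difference in log2 CPM after each gene's mean was removed. The 5 closest were *PPP2R1A* (0.080), *ZNF483* (0.091), *PPP1R10*, *UBFD1* and *R3HDM1* (0.11, 0.11 and 0.13). Their log2 fold changes were 0.69, 0.62, 0.60, 0.84 and 0.88. As the likeness uses the same difference between the IPs, these values are a description of 6 libraries.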

How the data were processed

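The authors sequenced paired-end 150 bp libraries, aligned them to GRCh38 with STAR 2.7.9a and ran RSEM with GENCODE version 37. The deposited tables hold raw counts (whole numbers), TPM and FPKM for each gene, and the FPKM values were not used. The program that made the counts and its strand setting are not given in the sources used here. From the counts, 14507 of 60655 genes passed filterByExpr and were tested after TMM normalization in edgeR 4.0.16 under R 4.3.3 (quasi-likelihood, antibody as the single term, Benjamini-Hochberg adjustment). The thresholds were a fold change of at least 1.5 and an adjusted p-value under 0.05. The standard error was derived from log2 fold change and F. TPM values served for levels between genes.

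Alternatives were DESeq2 1.42.0, other size factors and filters, limma 3.58.1 with a mean trend on TPM in log2 form, pseudocount 1 or 0.1, a loess GC correction (span 0.5) per library, a replicate block and leaving out each library. Same-numbered libraries deviated together from their group means (r = 0.57, 0.28 and 0.23 across genes), and their numbers come from the sample titles. Replicate 2 of one IP and 3 of the other gave 0.28 and 0.27. Of 200 genes changed 2-fold in simulated counts over 14507 genes, edgeR recovered 96% with 7 false calls, with and without the block. The changed genes were drawn from those with higher mean counts. Their 2-fold change is larger than the fold of *UBXN2B* (1.68), *NPLOC4* (1.63) and *BAG6* (1.55). Recovery of changes of that smaller size was not simulated. The simulated counts held no shift shared by same-numbered libraries, so they cannot compare the fits with and without the block for these data. The GC correction was not simulated.

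The members and gene lists were chosen with earlier results of these data known, *NPLOC4* among them. The text names all members, the genes past the thresholds in each further list or otherwise the 2 largest changes, and the 5 genes closest to *UBXN2B*. *UFD1*, *SEL1L*, *SYVN1*, *DERL1* and *DERL2* were chosen after their values were seen. Transcript lengths, GC and motifs are those of canonical GENCODE version 44 models, which held 60481 of the 60655 gene identifiers. The submitters' design text describes the replicates as independent.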

Additional observations from a re-analysis of the deposited data

How the results depend on the processing

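*UBXN2B* kept its positive log2 fold change in 16 of 16 alternatives, from 0.67 to 0.85, and was past the thresholds in 11. It was not past them with limma-trend on log2(TPM + 1) and log2(TPM + 0.1), at 0.83 and 0.85, or without 3 of the single libraries (leaving out one library gave 0.67 to 0.83). The GC correction moved it up, to 0.83, and the replicate block gave 0.75. All alternatives use the libraries on which *UBXN2B* was selected, and DESeq2 is the program the study used. They describe the processing and add no evidence for its enrichment. *FAF2* was positive in 16 of 16, from 0.24 to 0.42, and past the thresholds in 0. The other 8 members changed sign in 1 to 4 of 16 alternatives and passed in 0, with log2 fold changes from -0.33 to 0.32. The ends of this range were *UBXN1* with the GC correction (-0.33, and -0.32 with the replicate block added, against -0.13) and *VCP* without IGF2BP3 IP replicate 1 (0.32, against 0.15). The number of members past the thresholds was 1, and 0 with limma-trend on either TPM scale (0 and 0) and 0 to 1 with one library left out. The 2 further pathway genes past them became 0 and 0 on the TPM scales with limma-trend, 0 after the GC correction, 0 after it with the replicate block, and 0 to 2 with one library left out. Over all genes, 169 enriched RNAs became 281 with DESeq2, 359 without a filter, 517 with the replicate block, 82 with the GC correction, 273 with both, and 0 and 0 with limma-trend (476 and 617 up 1.5-fold with p under 0.05 left unadjusted), and 0 to 244 with one library left out. The 0 lower RNAs became 1 without a filter, 15 with the replicate block and 32 with block and GC correction. On the TPM scales the median of all genes shifted to 0.11 and 0.13, so a value of this size there marks no change relative to it. The cause of the lost calls was not tested. *UBXN6* and *UBXN8* rest on the fewest counts of the members, 131 to 243 per library.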
